A study of Mus musculus with 2 samples.

Results

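Troponin isoform genes were followed in heart muscle cells and other cells of the mouse embryonic heart. The members were Tnnt1, Tnnt2, Tnni1, Tnni2, Tnni3 and Tnnc1, matched by symbol, 6 of the 31053 genes in the deposited gene tables, and all 6 were found. Both libraries came from whole hearts at E12.5, split into single cells by TrypLE digestion and run on a 10X Chromium droplet kit, which reads a tag near the 3′ end of each RNA with a unique molecular identifier (UMI). The mutant library had the genotype Tbx18-Cre; Prmt1 fl/fl;YFP/+ and the control library the genotype Tbx18-Cre; YFP/+. Both therefore carried the Cre allele and the YFP reporter, and they differed by the floxed alleles of Prmt1, an arginine methyltransferase. Cre was driven by Tbx18, a gene active in the epicardium and in the sinus horns of the mouse embryo, and the title given by the submitters names the deletion as specific to the epicardium. The number of embryos, any pooling and any sorting of cells are not known from the labels. The version of the kit is uncertain, as given with the processing below. Each genotype is a single library. Differences between libraries therefore carry no replicate check and no p-value, and each interval given is at 95% and covers counting error only.

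Troponin is the calcium switch of striated muscle. Troponin C binds calcium, troponin I holds back the interaction of actin and myosin until calcium is bound, and troponin T ties the complex to tropomyosin on the thin filament. Each subunit comes from several genes. Tnnc1 encodes the troponin C of slow skeletal and heart muscle, and Tnnc2 that of fast skeletal muscle. Tnni1, the slow skeletal troponin I, is the main troponin I of the fetal heart and is replaced around and after birth by Tnni3, the cardiac one, while Tnni2 is the fast skeletal one. Tnnt2 is the cardiac troponin T, Tnnt1 the slow skeletal one and Tnnt3 the fast skeletal one.

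The troponin I and troponin T genes lie in pairs. In the GRCm38 build with GENCODE M21, Tnni3 lies at chr7:4518305-4524229 and Tnnt1 at chr7:4504570-4516382, both on the minus strand, with 1922 bases and no coding gene between them. Tnni1 at chr1:135779434-135810989 and Tnnt2 at chr1:135836354-135852260 are both on the plus strand, 25364 bases apart with Lad1 between them. Tnni2 at chr7:142441808-142444410 is paired with Tnnt3 at chr7:142498836-142516009, 54425 bases away on the same strand with Lsp1 between. Tnnc1 at chr14:31208312-31211729 stands alone. The transcript model with the most exons has 14 exons for Tnnt1, 16 for Tnnt2, 10 for Tnni1, 8 for Tnni2, 8 for Tnni3 and 6 for Tnnc1. Counts near the 3′ end do not separate splice forms, so the fetal and adult forms of Tnnt2 are counted together. Tnni3 overlaps Dnaaf3 on the same strand and Tnnc1 overlaps Nisch on the other strand. The labels do not say how reads of overlapping genes were assigned, so both genes carry that uncertainty.

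The promoters of the chromosome 7 pair and the chromosome 1 pair are shown because they hold the fetal and cardiac troponin I and the slow skeletal and cardiac troponin T, whose levels are compared below. The sequences are those of RefSeq on GRCm38.p6 and run from 250 bases before the transcript start to 50 bases after it, on the strand of the gene. They are Tnnt1 (chr7:4515926-4516225, minus strand), Tnni3 (chr7:4522479-4522778, minus strand), the first listed start of Tnnt2 (chr1:135836084-135836383, plus strand) and the first listed start of Tnni1 (chr1:135799171-135799470, plus strand). Capitals mark the letters of a motif searched on both strands.
Tnnt1: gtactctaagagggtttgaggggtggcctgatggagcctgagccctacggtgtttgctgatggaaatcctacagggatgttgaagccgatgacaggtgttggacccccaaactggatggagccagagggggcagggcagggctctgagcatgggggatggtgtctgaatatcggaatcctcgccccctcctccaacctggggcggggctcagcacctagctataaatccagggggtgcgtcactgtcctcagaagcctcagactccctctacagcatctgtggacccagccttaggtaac
Tnni3: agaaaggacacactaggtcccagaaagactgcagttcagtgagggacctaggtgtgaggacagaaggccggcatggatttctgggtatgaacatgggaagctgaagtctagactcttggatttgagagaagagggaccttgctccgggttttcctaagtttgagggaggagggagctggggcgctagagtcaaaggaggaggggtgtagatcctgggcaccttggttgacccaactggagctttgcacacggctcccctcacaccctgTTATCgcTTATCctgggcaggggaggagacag
Tnnt2: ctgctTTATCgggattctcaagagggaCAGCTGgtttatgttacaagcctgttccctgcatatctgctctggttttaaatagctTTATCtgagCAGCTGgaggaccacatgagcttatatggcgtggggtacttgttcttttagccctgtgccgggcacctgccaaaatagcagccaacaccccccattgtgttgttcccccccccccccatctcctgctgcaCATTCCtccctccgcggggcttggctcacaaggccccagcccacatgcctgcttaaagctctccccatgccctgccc
Tnni1: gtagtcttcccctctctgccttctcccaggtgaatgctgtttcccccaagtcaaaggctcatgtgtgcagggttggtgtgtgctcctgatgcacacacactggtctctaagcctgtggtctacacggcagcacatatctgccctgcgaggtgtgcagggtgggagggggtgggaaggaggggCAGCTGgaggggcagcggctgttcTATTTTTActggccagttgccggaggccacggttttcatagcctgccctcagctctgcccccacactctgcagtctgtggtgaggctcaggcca

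The motifs searched were GATAA for GATA factors, CATTCC for the MCAT motif, the E-box CAGCTG, TATTTTTA for MEF2, and the CArG box. Among 32851 promoters of the same length, 25.4% held GATAA, 14.7% CATTCC, 16.3% CAGCTG, 2.72% TATTTTTA and 1.63% a CArG box, and none of these motifs overlapped another in the windows shown. The Tnnt2 window held GATAA on the opposite strand at positions -245 and -166 from the start, CAGCTG at -223 and -157, and CATTCC at -27. The Tnni1 window held CAGCTG at -68 and TATTTTTA at -44. The Tnni3 window held GATAA on the opposite strand at positions 19 and 26. None of the letters searched was in the Tnnt1 window. Of the 8 troponin genes looked for, 6 were in the promoter table, and Tnni2 and Tnnt3 were not.

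The mutant library held 48527471 UMIs and the control library 49323576 UMIs in all. Cells with at least 1000 UMIs, at least 500 genes and at most 20% of UMIs from mitochondrial genes numbered 4640 in the mutant library, with a median of 4046 UMIs, and 4100 in the control library, with a median of 5897 UMIs. The libraries shared 8 cell barcodes. Leaving these cells out moved no member level, isoform share or member ratio that was recomputed beyond its counting interval. Values of other genes and of the Ttn, Nppa, Npr3, Tcf21 and depth subsets below were not recomputed. Cell groups were set by the summed UMIs of marker genes per 10000 UMIs of a cell, and no troponin member was used for any group. Cardiomyocytes had at least 150 UMIs per 10000 from 12 markers such as Myh6, Myh7 and Actn2. Of these, ventricular cells were rich in Myl2, the ventricular myosin light chain, and atrial cells had under 5 Myl2 UMIs per 10000 and at least 4 UMIs per 10000 from atrial markers such as Sln and Nr2f2. Just over the cardiomyocyte minimum, at 150 to 200 UMIs per 10000, lay 214 mutant and 371 control cells, and 151 mutant and 127 control cells lay just under it, at 100 to 150. Non-muscle cells had under 30 UMIs per 10000 of the cardiomyocyte markers. The mutant and control libraries gave 1258 and 1551 ventricular cells and 298 and 413 atrial cells. Dividing cells, rich in mitotic genes such as Top2a, numbered 288 and 402 among ventricular and 55 and 68 among atrial cells. Levels are given as UPM, the UMIs of a gene per 1000000 UMIs summed over the cells of a group. Prmt1 had 383 UPM (330 to 442) in mutant and 397 UPM (325 to 480) in control epicardial cells, and 764 UPM (752 to 775) in mutant and 646 UPM (636 to 656) in control ventricular cells. A 3′ tag need not lie in the deleted part of Prmt1, so these values check neither the deletion nor the labels.

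A UMI counts 1 captured RNA whatever its length, so the levels were not divided by gene length. In ventricular and atrial cells of both libraries Tnnc1 was highest, followed by Tnni1 and Tnnt2, and Tnni2 was lowest. Between them, Tnni3 stood above Tnnt1 except in control ventricular cells, where Tnnt1 was higher. The counting intervals of neighbours in this order did not overlap. In mutant ventricular cells Tnni3 at 523 UPM and Tnnt1 at 347 UPM had separate intervals, as they had in control ventricular cells at 535 and 644 UPM. Tnnc2, the fast skeletal troponin C and no member, had 1 UMI in the ventricular cells of each library.

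**Figure D1:**
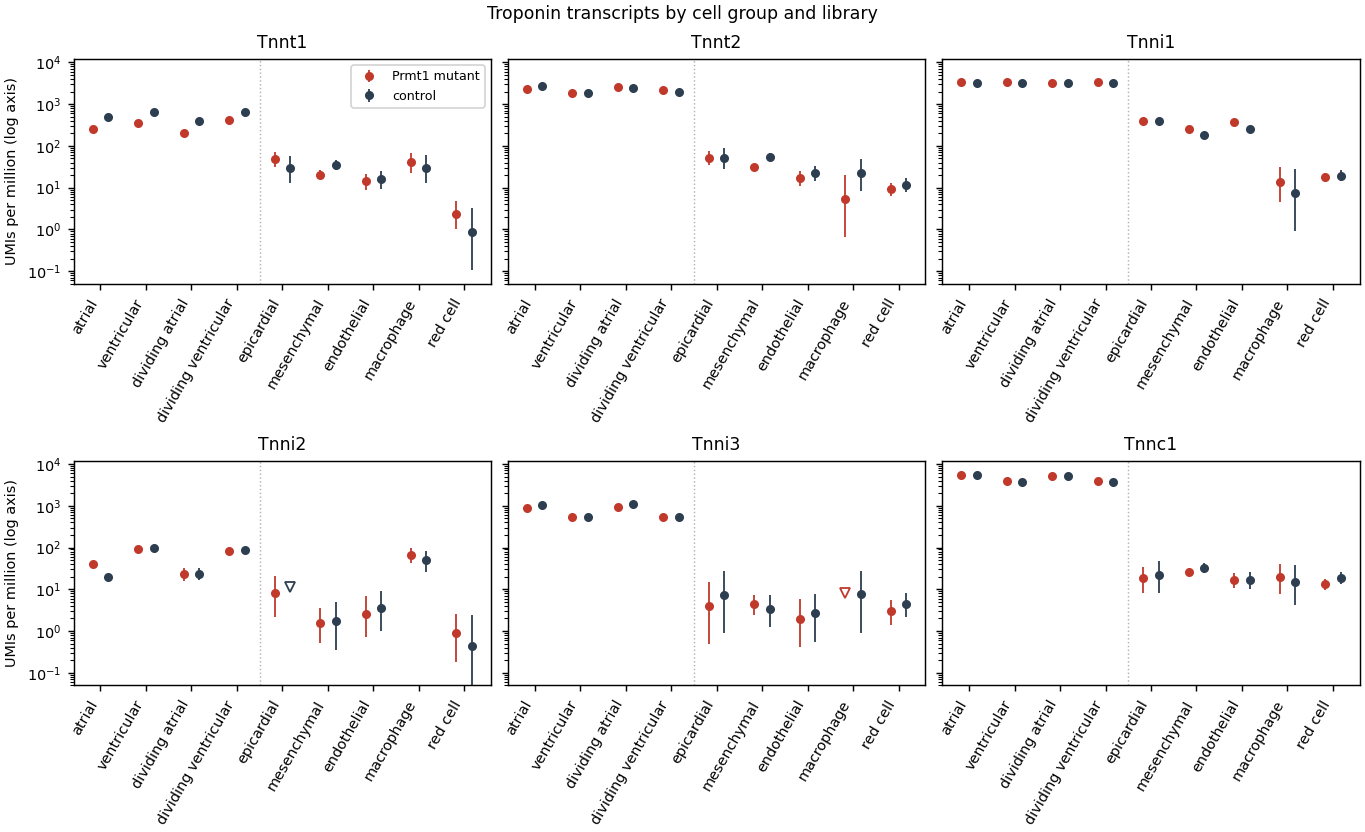
UPM (log axis) of each of the 6 members in 9 cell groups, mutant in red on the left and control in dark on the right of each group, with exact 95% Poisson intervals. Open triangles mark groups with 0 UMIs and stand at the level of 3 UMIs. Tnnc1, Tnni1 and Tnnt2 lie above 1000 UPM in every cardiomyocyte group, and Tnni1 alone stays above 100 UPM in epicardial, mesenchymal and endothelial cells.

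Between the libraries, Tnnt1 was the member that differed most, and it was lower in the mutant in both chambers. In ventricular cells it had 347 UPM (339 to 355) in the mutant and 644 UPM (634 to 654) in the control, a log2 ratio of -0.89 (-0.93 to -0.85). In atrial cells it had 249.5 UPM (237 to 263) in the mutant and 502 UPM (486 to 518) in the control, a log2 ratio of -1.01 (-1.10 to -0.92). The intervals of the libraries did not overlap in either chamber. Both ratios compare the same 2 libraries. Genes counted as measured where they had 50 UPM or more in either library and 30 UMIs or more in total. Of these, Tnnt1 had one of the 4 lowest ratios of 2012 in ventricular and of the 6 lowest of 2171 in atrial cells. It was the 1 member of 6 measured that passed 1.5-fold in ventricular cells, where 0.447% of all genes were lower and 0.646% higher by that much. In atrial cells it was the 1 of 5 measured, where 1.06% of genes were lower and 0.875% higher. Tnni2 was below the minimum level in atrial cells.

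The lower Tnnt1 appeared in the shares of cells and in the level per cell. At least 1 Tnnt1 UMI was found in 64.0% of mutant and 72.7% of control ventricular cells. With each cell thinned to 2000 UMIs, which left 1246 mutant and 1532 control cells, the shares were 33.1% in the mutant and 47.1% in the control. For comparison, the thinned share was 2.61% in mutant and 3.52% in control endothelial cells, which should lack the gene. The median ventricular cell had 92.8 UPM of Tnnt1 in the mutant and 248.6 UPM in the control, and the upper quartiles were 404 UPM in the mutant and 981 UPM in the control. Tnnt1 was thus uneven among ventricular cells of 1 library, with 36.0% of mutant and 27.3% of control cells at 0 and others above 1000 UPM.

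The ratio kept its direction over the range of cell depths, with 1 interval that reached 0. In ventricular cells of 1000 to 5000 UMIs the log2 ratio was -0.38 (-0.68 to -0.088), from 72 mutant and 178 control cells. It was -0.79 (-0.90 to -0.69) at 5000 to 10000 UMIs, -1.17 (-1.24 to -1.09) at 10000 to 20000 UMIs and -0.81 (-0.86 to -0.76) above that. In atrial cells the shallowest of these ranges, with 45 mutant and 55 control cells, gave -0.17 (-0.93 to 0.58), and the deeper ranges lay between -1.21 and -0.51. Dividing ventricular cells had 417 UPM of Tnnt1 in the mutant and 652 UPM in the control, a log2 ratio of -0.64 (-0.71 to -0.58), and it was the 1 of 6 members past 1.5-fold, where 0.569% of genes were lower by that much. Dividing atrial cells had 201 UPM in the mutant and 392.3 UPM in the control, a log2 ratio of -0.96 (-1.17 to -0.76), the 1 of 5 members measured past 1.5-fold where 4.17% of genes were lower. The median log2 ratio of all genes in that group was -0.10. As a share of all troponin T UMIs, Tnnt1 made up 15.5% in mutant and 25.8% in control ventricular cells, a difference of -10.3 points (-10.7 to -9.78). In atrial cells it made up 9.46% in the mutant and 15.6% in the control.

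**Figure D2:**
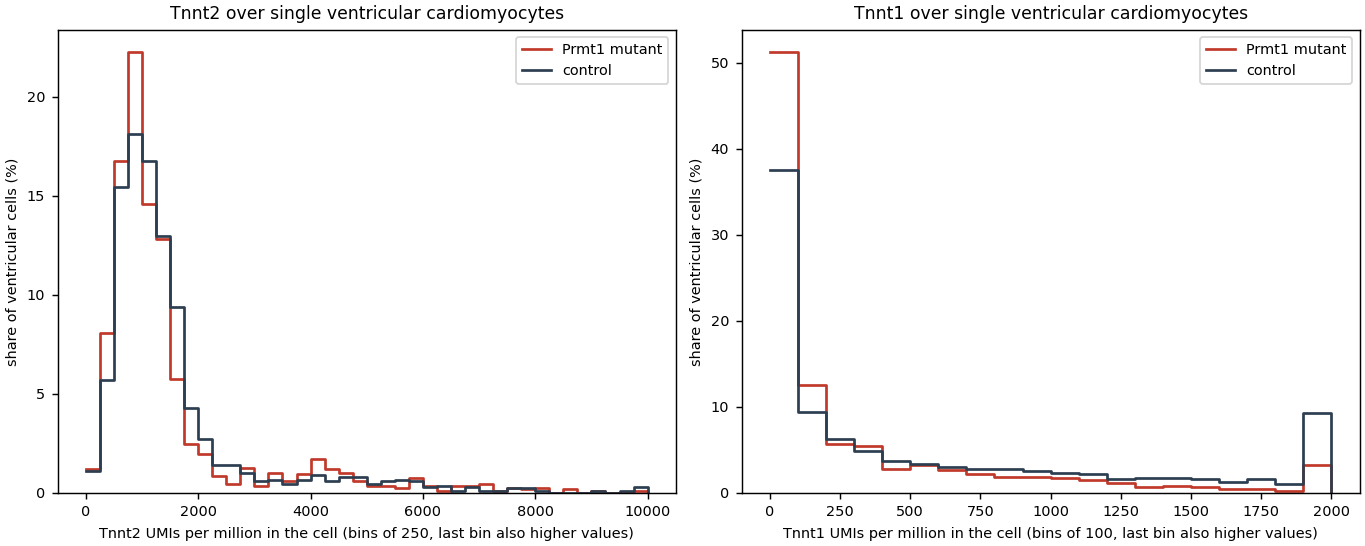
Distribution of Tnnt2 over ventricular cells with at least 5000 UMIs and of Tnnt1 over all ventricular cells, as the percentage of cells (vertical axis) by UPM in the cell (horizontal axis, the last bin holding all higher values), mutant in red and control in dark. The lowest Tnnt1 bin, under 100 UPM, holds 51.2% of mutant and 37.5% of control cells, and the Tnnt2 curves run close together with a long upper tail in both.

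The other members differed less between the libraries. In ventricular cells Tnnc1, which carries the calcium-binding sites, had 3841 UPM in the mutant and 3787 UPM in the control, a log2 ratio of 0.020 (0.0070 to 0.034). Tnni1 had 3394 UPM in the mutant and 3282 UPM in the control, and Tnnt2 had 1883 UPM in the mutant and 1853 UPM in the control. Tnni3 had 523 UPM in the mutant and 535 UPM in the control, and Tnni2 had 93.3 UPM in the mutant and 96.4 UPM in the control, with intervals that overlapped for both genes. The median log2 ratio of the 6 members in ventricular cells was -0.0060, beside 0.0072 for all genes measured.

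Atrial cells differed in more members. The cardiac isoforms were both lower in the mutant: Tnni3 had 870 UPM (846 to 895) in the mutant and 1065 UPM (1042 to 1089) in the control, a log2 ratio of -0.29 (-0.34 to -0.24). Tnnt2 had 2304 UPM (2264 to 2344) in the mutant and 2690 UPM (2653 to 2728) in the control, a log2 ratio of -0.22 (-0.26 to -0.19). Neither reached 1.5-fold. Tnni1 at 3313 UPM in the mutant and 3200 UPM in the control, and Tnnc1 at 5300 UPM in the mutant and 5388 UPM in the control, had log2 ratios of 0.050 and -0.024. The fast skeletal genes were higher in the mutant. Tnni2 had 39.8 UPM (34.8 to 45.4) in mutant and 20.1 UPM (16.98 to 23.5) in control atrial cells, from 224 and 150 UMIs, a log2 ratio of 0.99 (0.68 to 1.30). Few cells held much of this: 5 mutant cells had 33.5% of the Tnni2 UMIs and 5 control cells 28.7%.

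Tnnt3, the neighbour of Tnni2 and no member, had 83.9 UPM (76.5 to 91.9) in mutant and 32.1 UPM (28.2 to 36.4) in control atrial cells, a log2 ratio of 1.39 (1.16 to 1.62). These UMIs came from few cells: 85 of 298 mutant cells held 472 UMIs and 5 of them 33.5% of those, while 86 of 413 control cells held 240 UMIs and 5 of them 40.4%. The difference was not seen in every subset: in dividing atrial cells the log2 ratio was -0.031 (-0.75 to 0.68) for Tnni2 and 0.16 (-0.38 to 0.70) for Tnnt3, and in Ttn-rich atrial cells, described below, Tnnt3 had 27.7 UPM in the mutant and 35.8 UPM in the control. Acta1, the skeletal alpha-actin that embryonic heart muscle also makes, had 1365 UPM in mutant and 567 UPM in control atrial cells. Of the 8 skeletal muscle markers, Acta1 and Tnnt3 gave nearly the whole summed level of 1450 UPM in mutant and 601 UPM in control atrial cells. Myod1, Myf5 and Pax7, which define muscle progenitors, had 0 UMIs in the atrial cells of both libraries, and Myog had 3 UMIs in the mutant and 14 in the control. Marker levels of other cells also differed in the atrial groups. Summed macrophage markers had 1.78 UPM in the mutant and 76.9 UPM in the control, red cell markers 14567 UPM in the mutant and 22281 UPM in the control, and mesenchymal markers 51.9 UPM in the mutant and 112 UPM in the control. Their part in the atrial differences was not tested. With haemoglobin and mitochondrial genes taken out of the total, the atrial library ratios of Tnnt1, Tnnt2, Tnni1, Tnni3 and Tnnc1 stayed within their counting intervals. Those of Tnni2, Tnnt3 and Acta1 were not recomputed.

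**Figure D3:**
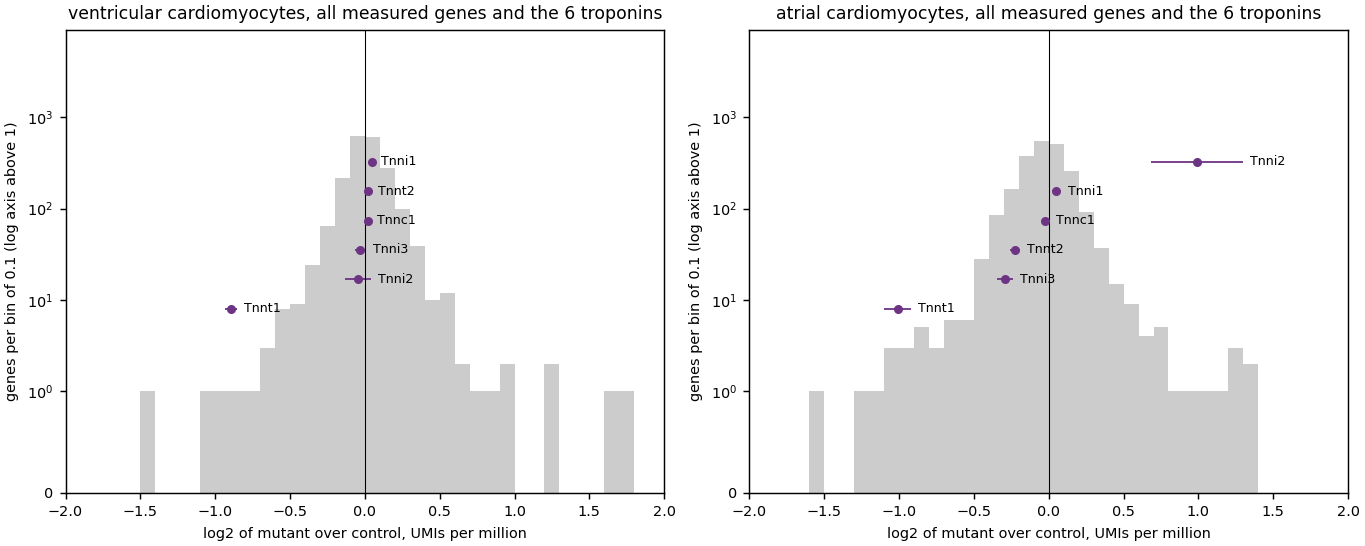
Histogram of the log2 ratio of mutant over control UPM for all genes measured in ventricular cells (2012 genes) and atrial cells (2171 genes), in bins of 0.1, with the 6 members as points with exact 95% intervals at arbitrary heights. Tnnt1 lies in the lower tail of both histograms at -0.89 and -1.01, and Tnni2 in atrial cells, at 0.99, is below the minimum level of the histogram.

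Among the members, the chambers differed most in troponin I. In atrial cells, the fast skeletal Tnni2 was lower and the cardiac Tnni3 higher than in ventricular cells of the same library. Tnni2 had 39.8 UPM in mutant atrial cells and 93.3 UPM in mutant ventricular cells, a ratio of 0.427, and 20.1 UPM in control atrial cells and 96.4 UPM in control ventricular cells, a ratio of 0.208. It was the 1 member of 6 measured past 2-fold between the chambers in either library. In the mutant 1.93% of genes were lower and 3.77% higher by that much, and in the control 1.98% were lower and 4.96% higher. Tnni2 reached the minimum level for a measured gene in ventricular cells only, so it could be counted only as lower in atrial cells. Tnni3 was higher in atrial cells by 1.66 times in the mutant and 1.99 times in the control. Tnni1 had almost the same level in both chambers, with a ratio of 0.976 in the mutant and 0.975 in the control.

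The isoform shares of troponin I followed these levels. Tnni3 made up 20.6% of troponin I UMIs in mutant atrial cells and 13.1% in mutant ventricular cells, a difference of 7.55 points (6.99 to 8.11). In the control it made up 24.9% in atrial and 13.7% in ventricular cells, a difference of 11.2 points (10.7 to 11.7). Tnni1 supplied most of the rest: 78.5% in mutant atrial, 74.7% in control atrial, 84.6% in mutant ventricular and 83.9% in control ventricular cells. Tnni2 supplied 0.943% in mutant and 0.468% in control atrial cells, and 2.33% in mutant and 2.46% in control ventricular cells. The fetal isoform was therefore the main troponin I of every cardiomyocyte group at this stage, with the adult cardiac isoform already present. Per cell, the median Tnni3 share over atrial cells with at least 20 troponin I UMIs was 18.2% in the mutant and 22.2% in the control, and over ventricular cells 11.9% in the mutant and 12.6% in the control.

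**Figure D4:**
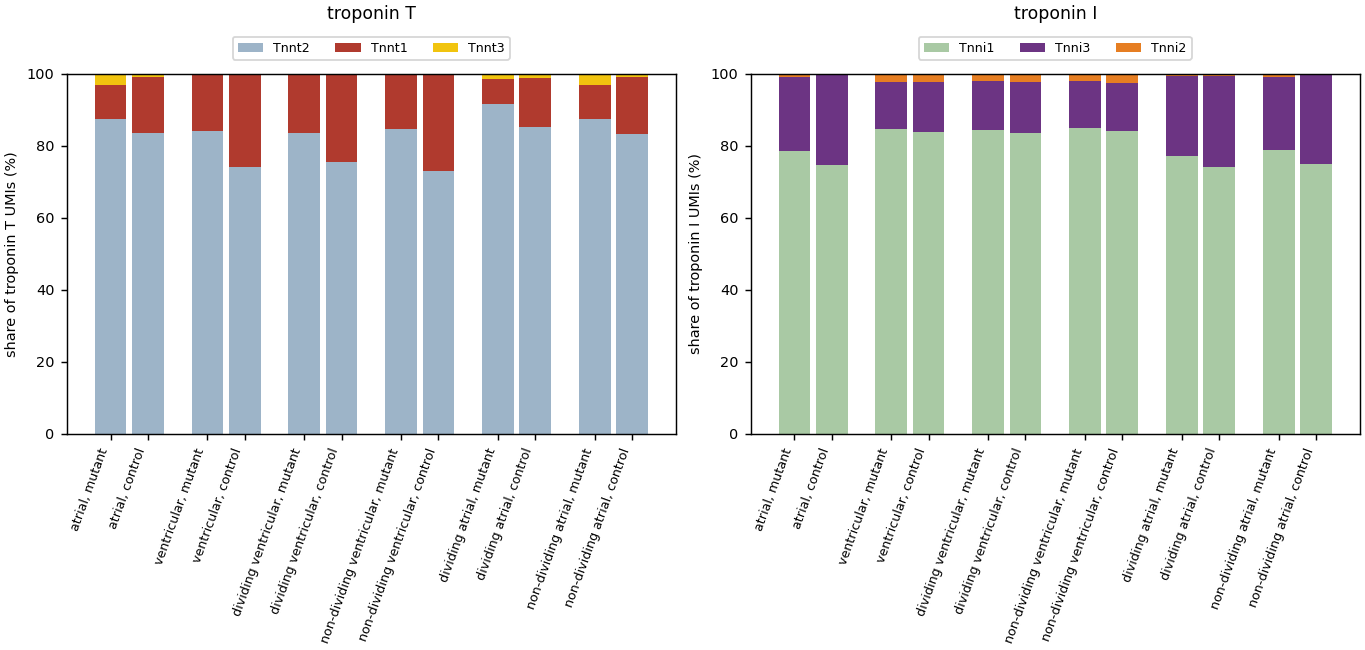
Stacked shares (percent of UMIs) of the troponin T genes and the troponin I genes in 6 cardiomyocyte groups, with the mutant bar left of the control bar in each group. The Tnnt1 part is smaller in the mutant bar of every group, and the Tnni3 part is larger in atrial than in ventricular bars.

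The troponin T and troponin C members also differed between the chambers, by less than 2-fold. Tnnc1 was higher in atrial cells by 1.38 times in the mutant and 1.42 times in the control, and Tnnt2 by 1.22 times in the mutant and 1.45 times in the control. Tnnt1 was lower in atrial cells, with ratios of 0.720 in the mutant and 0.779 in the control. Cardiac and slow skeletal troponin T thus had opposite chamber differences in both libraries. Tnnt3, the fast skeletal troponin T and no member, had 83.9 UPM in mutant atrial and 6.97 UPM in mutant ventricular cells, a ratio of 12.1 (10.0 to 14.6), and 32.1 UPM in control atrial and 3.92 UPM in control ventricular cells, a ratio of 8.20 (6.45 to 10.49). As a share of troponin T, Tnnt2 made up 87.4% in mutant atrial cells against 84.2% in mutant ventricular cells, and 83.4% in control atrial cells against 74.1% in control ventricular cells.

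Within the ventricular group, the cells with at least 20 Nppa UMIs per 10000 differed from the others mainly in Tnnt1 and Tnni2. Nppa encodes atrial natriuretic peptide, which in the embryo is also made in the trabeculae of the ventricle. This split was chosen after the data were seen. Tnnt1 had 197 UPM in the 166 Nppa-high and 372 UPM in the 1092 Nppa-low cells of the mutant, and 419 UPM in 130 and 676 UPM in 1421 cells of the control. Tnni2 had 35.6 UPM in Nppa-high and 103 UPM in Nppa-low cells of the mutant, and 53.4 UPM in Nppa-high and 103 UPM in Nppa-low cells of the control. Both genes were lower in the Nppa-high cells, and Tnni3 was higher there by 1.18 times in the mutant and 1.19 times in the control. Tnni1, Tnnt2 and Tnnc1 had ratios between 0.917 and 1.09.

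Dividing and non-dividing ventricular cells had similar troponin levels. No member of 6 measured reached 1.5-fold in either library, where 6.57% of genes in the mutant and 7.07% in the control did. Tnnt2 was higher in dividing ventricular cells in both libraries, with 2153 UPM in dividing and 1829 UPM in non-dividing cells of the mutant, and 2005 UPM in dividing and 1735 UPM in non-dividing cells of the control. The log2 ratios were 0.24 (0.20 to 0.27) in the mutant and 0.21 (0.18 to 0.24) in the control. Without the top 6% of doublet scores the mutant value turned to -0.078. Tnnt1 was higher in dividing cells of the mutant, with a log2 ratio of 0.35 (0.27 to 0.42), and in the control the ratio was 0.028 (-0.024 to 0.081). Tnni1, Tnni3 and Tnnc1, which carry the bulk of troponin I and C, had ratios between 0.986 and 1.05 in both libraries. Dividing ventricular cells were deeper, with medians of 17891 UMIs in the mutant and 17466 UMIs in the control, beside 10306 UMIs in mutant and 8905 UMIs in control non-dividing cells. With every cell thinned to 2000 UMIs, the Tnnt2 log2 ratio was 0.31 in the mutant and 0.25 in the control. In atrial cells, Tnnt1 was lower in dividing cells of both libraries, with log2 ratios of -0.27 (-0.47 to -0.075) in the mutant and -0.39 (-0.51 to -0.26) in the control. Tnnt2 had log2 ratios of 0.19 (0.13 to 0.25) in mutant and -0.13 (-0.18 to -0.075) in control dividing atrial cells. Dividing and non-dividing cells also differed in their share of Ttn-rich cells, given below.

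A subset of cardiomyocytes rich in Ttn RNA had a higher summed level of Tnnt2 than cells poor in it. Ttn encodes titin, the giant spring protein of the sarcomere, and is 1 of the 12 markers of the cardiomyocyte score. Cells with at least 15 Ttn UMIs per 10000 were called Ttn-rich and cells with under 10 Ttn-poor, with minimums set after the values were seen. Few cells lay between: 19 mutant and 20 control ventricular cells and 3 mutant and 4 control atrial cells. Ttn-rich cells made up 12.4% of mutant and 10.6% of control ventricular cells, and 16.8% of mutant and 16.9% of control atrial cells. In the mutant they made up 18.1% of dividing and 10.1% of non-dividing ventricular cells, and in the control 13.9% and 8.93%. The atrial shares were 30.9% of dividing and 13.9% of non-dividing cells in the mutant, and 14.7% and 16.3% in the control. Their part in the Tnnt2 differences between dividing and non-dividing cells was not tested.

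Both cardiac isoforms were higher in the Ttn-rich cells. In ventricular cells Tnnt2 had 4676 UPM in Ttn-rich and 1284 UPM in Ttn-poor cells of the mutant, and 5079 UPM in Ttn-rich and 1403 UPM in Ttn-poor cells of the control, ratios of 3.64 and 3.62. Tnni3 had 953 UPM in Ttn-rich and 439 UPM in Ttn-poor cells of the mutant, and 928 UPM in Ttn-rich and 478 UPM in Ttn-poor cells of the control, ratios of 2.17 and 1.94. In atrial cells the ratios for Tnnt2 were 2.53 in the mutant and 2.64 in the control, and for Tnni3 2.06 in the mutant and 1.94 in the control. Tnni1, the fetal isoform, stayed within ratios of 0.956 to 1.06 in both chambers and libraries. Tnnc1 was lower in the Ttn-rich cells, with ratios of 0.895 in mutant and 0.883 in control ventricular cells, and 0.793 in mutant and 0.681 in control atrial cells. Many genes differed in this way: 32.2% of genes measured in mutant and 33.8% in control ventricular cells were at least 2-fold higher in the Ttn-rich cells, and 28.5% of genes in mutant and 33.1% in control atrial cells. The 1 or 2 members of 6 past 2-fold are near that background.

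Other properties of the cells moved with the Ttn level. The median number of genes detected was 3651 in Ttn-rich and 2239 in Ttn-poor ventricular cells of the mutant, and 3233 in Ttn-rich and 2100 in Ttn-poor cells of the control. Mitochondrial genes took 5.83% of UMIs in Ttn-rich and 3.62% in Ttn-poor ventricular cells of the mutant, and 6.31% in Ttn-rich and 3.94% in Ttn-poor cells of the control. Of the Ttn-rich ventricular cells, 16.7% in the mutant and 16.5% in the control were in the top 6% of doublet scores, beside 5.72% and 6.58% of the Ttn-poor cells. Their part in the troponin levels was not tested. In atrial cells the doublet shares were 6% in Ttn-rich and 8.57% in Ttn-poor cells of the mutant, and 7.14% in Ttn-rich and 5.60% in Ttn-poor cells of the control.

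The split bears on the library differences of the members. Tnnt1 was lower in the mutant on both sides of it: the ventricular log2 ratio was -1.51 (-1.61 to -1.41) in Ttn-rich and -0.82 (-0.86 to -0.77) in Ttn-poor cells. Within the mutant, Tnnt1 had 352 UPM in Ttn-rich and 341 UPM in Ttn-poor ventricular cells, and within the control 1003 UPM in Ttn-rich and 600 UPM in Ttn-poor cells. For atrial cells the library ratios were -0.95 (-1.13 to -0.77) in Ttn-rich and -1.04 (-1.15 to -0.94) in Ttn-poor cells. Tnnt2, close to 0 over all ventricular cells, was -0.12 (-0.15 to -0.086) in Ttn-rich and -0.13 (-0.15 to -0.10) in Ttn-poor cells, and the mutant had the larger share of Ttn-rich ventricular cells. Tnni2 in control Ttn-rich ventricular cells rested on few cells, since 5 of them held 182 of 400 UMIs.

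In epicardial, mesenchymal and endothelial cells, Tnni1 was the member with the highest level. It had 385 UPM (332 to 444) in mutant and 393 UPM (322 to 476) in control epicardial cells, the outer layer of the heart. In mesenchymal cells it had 251 UPM (234 to 269) in the mutant and 180 UPM (160 to 201) in the control, and in endothelial cells 382 UPM (352 to 415) in the mutant and 247 UPM (219 to 278) in the control. Macrophages, which should lack it, had 13.8 UPM (4.47 to 32.1) in the mutant and 7.60 UPM (0.921 to 27.5) in the control, from 5 and 2 UMIs. Red cells had 17.9 UPM in the mutant and 19.4 UPM in the control, with 751598 UPM of red cell markers in the mutant and 811392 UPM in the control. Tnni1 thus had a level in endothelial cells 27.8 times (11.8 to 85.9) that in macrophages in the mutant and 32.5 times (8.92 to 270.1) in the control. This rests on the limit for non-muscle cells: with up to 150 UMIs of cardiomyocyte markers per 10000 allowed, a limit chosen after seeing the data, the log2 ratio was 2.78 in the mutant and -0.35 in the control, against 4.80 and 5.02. With thinned cells the mutant value was 3.30.

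Free RNA from broken cardiomyocytes gives UMIs in any droplet, so Tnni1 was set beside Tnnc1, the most abundant member in cardiomyocytes. There were 23.3 Tnni1 UMIs per Tnnc1 UMI (15.6 to 36.3) in mutant and 14.5 (9.13 to 24.5) in control endothelial cells. Epicardial cells had 21.1 in the mutant and 17.7 in the control, and mesenchymal cells 9.46 in the mutant and 5.61 in the control. Ventricular cells had 0.884 in the mutant and 0.867 in the control, and atrial cells 0.625 in the mutant and 0.594 in the control. Macrophages had 0.714 (0.18 to 2.61) in the mutant and 0.500 (0.045 to 3.49) in the control. Droplets of the control with 10 to 100 UMIs, which hold no cell, had 0.640, and red cells had 1.36 in the mutant and 1.02 in the control. The ratios of endothelial, epicardial and mesenchymal cells stood above those of cardiomyocytes and of empty droplets, and the intervals of macrophages took in both. Tnni1 was not alone in this. Per Tnnc1 UMI, mutant and control endothelial cells had 0.880 and 0.947 of Tnnt1, against 0.0903 and 0.170 in ventricular cells. Tnnt2 had 1.04 and 1.32 against 0.490 and 0.489, and Tnni2 0.160 and 0.211 against 0.0243 and 0.0255. Tnni3, at 0.120 and 0.158, was near its ventricular 0.136 and 0.141. The part of Tnnc1 in these ratios was not tested. The mutant matrix held no barcodes under 500 UMIs, so its empty droplets could not be measured. The part of free RNA in the Tnni1 level of non-muscle cells was not tested.

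**Figure D5:**
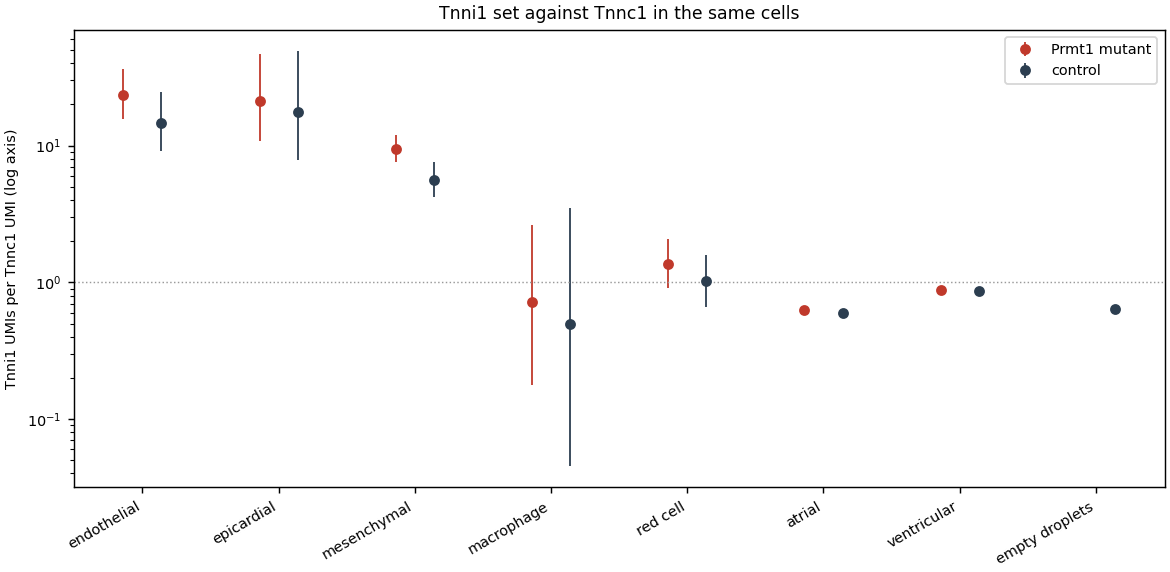
Tnni1 UMIs per Tnnc1 UMI (log axis) in each cell group with exact 95% intervals, mutant in red on the left and control in dark on the right, and empty droplets of the control. Endothelial, epicardial and mesenchymal cells lie above 5, and ventricular cells, atrial cells and empty droplets below 1.

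The Tnni1 of these cells was spread unevenly. Of the mesenchymal cells, 433 of 1129 in the mutant and 181 of 694 in the control held a Tnni1 UMI, and the 5 highest cells held 7.84% of the UMIs in the mutant and 13.7% in the control. Of the endothelial cells, 148 of 278 in the mutant and 61 of 214 in the control held one, and the 5 highest cells held 43.1% of the UMIs in the mutant and 66.3% in the control. The endothelial level thus rested to a large part on few cells. In cells with no UMI of any cardiomyocyte marker, a choice made after seeing the data, Tnni1 had 368 UPM in mutant and 97.9 UPM in control endothelial cells, and 259 UPM in mutant and 180 UPM in control mesenchymal cells. Only 8 epicardial cells of each library had no such UMI, and the summed cardiomyocyte markers were higher in epicardial cells, at 1607 UPM in the mutant and 1343 UPM in the control, than in mesenchymal cells, at 343 and 303 UPM. Their part in the epicardial level was not tested. Endothelial cells with an Npr3 UMI, a marker of endocardium, had 356 UPM of Tnni1 in the mutant and 532 UPM in the control, and those without had 394 UPM in the mutant and 131 UPM in the control.

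Mutant over control, Tnni1 was 1.55 times higher in endothelial cells, with a log2 ratio of 0.63 (0.42 to 0.84), and 1.39 times higher in mesenchymal cells, with a log2 ratio of 0.48 (0.29 to 0.67). The direction did not hold everywhere: endothelial cells with an Npr3 UMI had the lower level in the mutant, as given above, and with the non-muscle limit of 150 the mesenchymal log2 ratio was -0.12. It was the 1 member measured in endothelial cells, where 4.87% of genes were higher by 1.5-fold and 1.76% lower. In mesenchymal cells Tnnt2 was the 1 of 2 members measured past 1.5-fold, where 1.39% of genes were lower and 1.47% higher. It was lower in the mutant, at 30.5 UPM from 98 UMIs, against 54.4 UPM from 95 UMIs in the control. Tnnt2 reached the minimum level for a measured gene in the control only, so it could enter this count only as lower. Of the Tnnt2 UMIs, 5 control cells held 53 and 5 mutant cells 28. This left 70 UMIs in the other mutant and 42 in the other control cells. A Tnnt2 UMI was found in 6.11% of mutant and 5.62% of control mesenchymal cells, and with equal weight per cell the log2 ratio was -0.022. In epicardial cells, the layer in which Tbx18-Cre is active, the Tnni1 log2 ratio was -0.031 (-0.38 to 0.33) and that of Tnnt2 0.020 (-0.97 to 1.07).

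The other members had low levels outside muscle. Tnnc1 lay between 15.2 and 32.1 UPM in epicardial, mesenchymal and endothelial cells and macrophages of both libraries, against 3841 UPM in mutant and 3787 UPM in control ventricular cells. Tnni3 had at most 14 UMIs in any non-muscle group. Tnni2 in macrophages had 66.0 UPM (42.3 to 98.3) in the mutant and 49.4 UPM (26.3 to 84.5) in the control. Endothelial cells had 2.62 UPM in the mutant and 3.58 UPM in the control. Macrophages were not the only such group. Control outflow vessel wall cells, described below, had 118 UPM of Tnni2, from 24 UMIs in 5 of 80 cells, and the mutant ones had 0 UMIs. The macrophage UMIs were few, 24 in 19 of 73 mutant cells and 13 in 12 of 77 control cells. Per Tnnc1 UMI, macrophages had 3.43 Tnni2 UMIs in the mutant and 3.25 in the control, beside 0.0243 in mutant and 0.0255 in control ventricular cells. Control outflow vessel wall cells had 2.67. In macrophages with no cardiomyocyte marker UMI, Tnni2 had 74.7 UPM in the mutant and 68.0 UPM in the control.

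Tnnt1 also had a low level in some non-muscle cells. In macrophages it had 41.3 UPM (23.1 to 68.1) in the mutant and 30.4 UPM (13.1 to 59.9) in the control, from 15 and 8 UMIs. It had 48.6 UPM (31.2 to 72.4) in mutant and 29.7 UPM (12.8 to 58.5) in control epicardial cells, and 20.6 UPM (15.9 to 26.2) in mutant and 34.9 UPM (26.7 to 44.9) in control mesenchymal cells. Mesenchymal cells with a UMI of Tcf21, a transcription factor of epicardium-derived fibroblasts, had more, a split chosen after the data were seen. They had 25.9 UPM in the mutant and 45.5 UPM in the control, against 3.88 UPM in mutant and 13.8 UPM in control mesenchymal cells without Tcf21. The mutant values rested on 63 UMIs in 800 cells with Tcf21 (19.9 to 33.1 UPM) and 3 UMIs in 329 cells without (0.80 to 11.3 UPM). Tnnt1 in epicardial cells was below the minimum level for a library ratio. In the outflow vessel wall group, 51 mutant and 80 control cells rich in Cxcl12, Eln and Fbln5, both members measured were past 1.5-fold lower in the mutant, where 11.7% of genes were lower and 9.59% higher. Tnni1 had 293 UPM in the mutant and 595 UPM in the control, a log2 ratio of -1.02 (-1.58 to -0.49), and Tnnt2 had 67.6 UPM in the mutant and 246 UPM in the control, a log2 ratio of -1.86 (-3.07 to -0.83). The control values rested on few cells: 5 of them held 77 of 121 Tnni1 UMIs, 44 of 50 Tnnt2 UMIs and 24 of 24 Tnni2 UMIs. With equal weight per cell the log2 ratio was -0.21 for Tnni1 and 0.20 for Tnnt2.

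Other genes of the thin filament were counted beside the members. Of a list of 19, 8 were measured in ventricular cells and none was past 1.5-fold, near the 0.646% of all genes higher and 0.447% lower, and their median log2 ratio was -0.000241 beside 0.0072 for all genes. In atrial cells 10 were measured. Past 1.5-fold, Acta1, with a log2 ratio of 1.27, and Tnnt3 were higher in the mutant and none was lower. Of all genes 0.875% were higher and 1.06% lower. Tnnt3 reached the minimum level for a measured gene in the mutant only, so it could be counted only as higher. The median log2 ratio of the list was -0.026 beside -0.024 for all genes. Between the chambers, 4 of 10 measured in the mutant (Acta1, Tpm2, Lmod2 and Tnnt3) and 1 of 9 in the control (Tpm2) were at least 2-fold higher in atrial cells, where 3.77% of all genes in the mutant and 4.96% in the control were. Tpm2, a tropomyosin, was past 2-fold in both libraries. In the mutant it had 56.0 UPM in atrial and 20.4 UPM in ventricular cells. In the control it had 62.5 UPM in atrial and 23.4 UPM in ventricular cells. Tpm2, and Tnnt3 in the mutant, reached the minimum level in atrial cells only, so they could be counted only as higher there. In the control, Tnnt3 had 32.1 UPM in atrial and 3.92 UPM in ventricular cells. Both levels were under the minimum, so Tnnt3 was not counted there. Of a list of 14 regulators of Tnnt2 splicing, 3 were measured in ventricular and 5 in atrial cells, and none was past 1.5-fold.

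Over 20 points, 10 cell groups in each of the 2 libraries, each member had genes with a similar pattern, by Pearson's r of log2(UPM + 10) among 2584 genes that were no member or marker. The points share libraries, and the groups differ mainly as muscle and non-muscle cells. For Tnnc1 these were Actc1, Fbxl22 and Nkx2-5 with r of 0.995 to 0.996, and for Tnni3 Rbm24, Trdn and Cox6a2 with r of 0.995 to 0.997. Tnnt2 was most like Pgam2, Nebl and Hspb7 at 0.982 to 0.984, and Tnni1 most like Hspb1, Pdlim7 and Bex4 at 0.963 to 0.970. Tnnt1 was most like Got1, Atp5j2 and Ppif at 0.958 to 0.961. Tnni2 had no close match, with Bola3 at 0.820, Comtd1 at 0.802 and Eci1 at 0.780. Among the members themselves, r was 0.987 for Tnni3 with Tnnc1 and 0.4275 for Tnni1 with Tnni2, the closest and the least similar pairs.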

How the data were processed

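The values deposited by the authors are whole UMI counts for each gene in each barcode. Per the file headers they come from Cell Ranger 3.0.2. Seurat is listed in the submitters' processing notes. A genome build is not named there. The mutant matrix was deposited filtered, with 7181 barcodes of at least 500 UMIs, and the control matrix unfiltered, with 542175 barcodes holding a UMI. The control matrix lists 6794880 barcodes, the size of the list of a later kit version than the labels name. Whether the kit version differed between the libraries is not known. The same minimums were applied to both. Barcodes with 1000 UMIs but under 500 genes (2131 mutant, 1744 control) were left out. UMI counts were summed over the marker-gated cells of a group and divided by the group's total. Intervals were exact Poisson for levels, exact conditional binomial for ratios, Clopper-Pearson for shares and Newcombe for differences of shares. A count of 0 was read as allowing 3 UMIs. Ventricular cells had at least 20 Myl2 UMIs per 10000 and under 4 of atrial markers, and atrial cells under 5 of Myl2. Dividing cells had at least 25 UMIs per 10000 of mitotic genes and non-dividing cells under 10. Non-muscle minimums per 10000 were 8 for epicardial, 15 for mesenchymal, 8 for endothelial, 8 for outflow, 10 for macrophage and 1000 for red cell markers. Tagln, Acta2, Cnn1, Rgs5 and Mylk were dropped from the outflow gate and Pf4 from the megakaryocyte gate because other heart cells make them. Megakaryocytes (11 mutant, 7 control) were not described. Cells that passed 2 gates (177 mutant, 101 control), passed none (215 mutant, 150 control), had a middle cardiomyocyte score (568 mutant, 367 control) or were cardiomyocytes of neither chamber (164 mutant, 197 control) were in no group. Doublets were scored with scanpy's Scrublet; its automatic threshold marked 0 cells in both libraries and did not work, so doublets stayed in and the top 6% of scores were left out in an alternative. The gate minimums were set with the data at hand, and the members and lists were chosen with earlier results of these data known. The text was set to name every member and the other troponin genes, no more than 4 genes of a list that passed 1.5-fold between libraries or 2-fold between chambers in both libraries, and for each member the 3 genes most like it. Marker and split genes named beside them (Prmt1, Nppa, Ttn, Npr3, Tcf21) fall outside this rule. No per-sample column lay outside the series. The ratio computation was tested on simulated data. Python 3.11.15, numpy 2.4.6, scipy 1.17.1, pandas 2.3.3, scanpy 1.11.5 and matplotlib 3.10.9 were used.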

Additional observations from a re-analysis of the deposited data

Results flagged for a closer look

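Some library ratios had opposite signs in 2 groups of cells; with 1 library per genotype none of these differences between groups was tested, and no cause was tested. The Tnnt2 log2 ratio of mutant over control was 0.023 in ventricular and -0.22 in atrial cells. Within atrial cells it was 0.070 in dividing and -0.25 in non-dividing cells. Tnnt2 in dividing over non-dividing atrial cells had a log2 ratio of 0.19 in the mutant and -0.13 in the control. Ttn-rich cells, in which Tnnt2 was higher, made up 30.9% of dividing and 13.9% of non-dividing atrial cells in the mutant. In the control these shares were 14.7% and 16.3%. Tnnc1, the troponin C of the heart, had a mutant over control log2 ratio of 0.020 in ventricular and -0.024 in atrial cells, both small, and of 0.18 in Ttn-rich and -0.037 in Ttn-poor atrial cells. Tnni2 had -1.33 in Ttn-rich and 0.16 in Ttn-poor ventricular cells, and 5 control cells held 45.5% of the UMIs behind the Ttn-rich value. Tnnt3, a fast skeletal gene that is no member, had 83.9 UPM in atrial cells of the mutant, against 32.1 UPM in atrial cells of the control.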

How the results depend on the processing

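The alternatives on cell minimums, gate strictness, doublets, weighting, thinning, scaling, the Myl2 gate and pseudocounts were planned; those on the non-muscle upper limit, cells without cardiomyocyte markers, shared barcodes and Ttn-rich cells were chosen after seeing the data. Of 3327 alternative values, 2404 stayed within counting error, 919 moved beyond it and 4 that were past their fold threshold turned direction. Counted whatever their size, 57 log2 ratios and share differences took the opposite sign, among them Tnnt2 of mutant over control in ventricular cells, 0.023, which was -0.13 without Ttn-rich cells. Of 117 alternative library ratios of results past 1.5-fold, 9 fell under it, and of 24 chamber ratios past 2-fold none did. The Tnnt1 log2 ratio of mutant over control, -0.89 in ventricular cells, was -0.96 with stricter gates, -0.96 without the top doublet scores, -0.95 with thinned cells and -0.82 without Ttn-rich cells. In atrial cells, -1.01 became -0.83 with stricter gates, -0.85 with equal weight per cell and -0.77 with thinned cells. The Tnnt2 log2 ratio of dividing over non-dividing ventricular cells, 0.24 in the mutant, was 0.29 with stricter gates, 0.31 with equal weight, 0.31 with thinned cells, 0.16 without Ttn-rich cells and -0.078 without the top doublet scores, which left out 30 of 288 dividing and 39 of 666 non-dividing cells. In the control, 0.21 became 0.36 with stricter gates, 0.24 without the top doublet scores and 0.25 with thinned cells. The atrial minus ventricular Tnni3 share, 7.55 points in the mutant, was 6.35 with thinned cells and 6.67 without Ttn-rich cells; in the control, 11.2 points became 10.2 with equal weight and 9.63 without Ttn-rich cells. The Tnni1 log2 ratio of endothelial cells over macrophages, 4.80 in the mutant, was 3.30 with thinned cells and 2.78 with a non-muscle upper limit of 150, and in the control, 5.02 became -0.35 with that limit. The mesenchymal over macrophage ratio of the control became -0.054 with that limit. The Tnnt2 log2 ratio of mutant over control in the outflow group, -1.86, became 0.20 with equal weight and 2.64 in cells without cardiomyocyte marker UMIs. The causes were not tested. No paired analysis was possible because each genotype had 1 library and the labels give no replicate numbers. Depth limits the non-muscle values most: several rest on under 30 UMIs.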
